A study of Homo sapiens with 4 samples.

Results

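The cathepsins described here are the 10 genes CTSA, CTSB, CTSC, CTSD, CTSH, CTSK, CTSL, CTSS, CTSV and CTSZ. Every probe set annotated to exactly 1 of these symbols was taken, which gave 20 probe sets of the 41091 with 1 symbol, and 10 of the 19775 genes that these stand for. The family was selected on measured values of these arrays, since the fall of a CTSZ probe set between the cell lines of this study was known when the genes were picked. For this reason the difference of each member between the lines is given as a description and without a p-value.

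The parental line, COLO-320DM, comes from a human colorectal cancer, and 320IWR was derived from it by long culture with IWR-1, an inhibitor of tankyrase to which it is resistant (single-cell clones were later taken from it by limiting dilution, and the arrays are labelled as the line itself). Both were grown in dishes to near confluence, no treatment of either is named in the labels, and their total RNA was hybridised to 2 arrays per line (GeneChip U133 Plus 2.0, 4 in all). It is not given in the sources used here whether IWR-1 was in the medium at harvest or whether the arrays of a line came from separate cultures, so the spread behind the p-values below is that between arrays of a line and may be purely technical. The values are normalized probe set intensities on a linear scale, and a log2 difference is always the mean log2 value of the 320IWR arrays minus that of the COLO-320DM arrays.

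The cathepsins described here are proteases of the lysosome. Most of them are cysteine proteases related to papain (cathepsins B, C, H, K, L, S, V and Z), while cathepsin D is an aspartic protease and cathepsin A a serine carboxypeptidase. They are made as inactive proenzymes, carried to the lysosome largely by mannose 6-phosphate receptors, activated at the acid pH that the vacuolar ATPase keeps up, and held in check outside the lysosome by cystatins. In colorectal tumours they are known for the breakdown of extracellular matrix and for lysosomal protein turnover.

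The promoters of the members that differed most in each direction are shown first, because they hold a motif that all matched members share and that played no part in the choice of the family. CTSZ and CTSH had the largest negative log2 differences, and CTSC was the gene with several probe sets that were all positive. The sequences are RefSeq promoters of GRCh38.p14, given 5′ to 3′ for the 250 bases before the start site, with each GC box (GGGCGG, either strand) in capitals.
CTSZ (chr20:59007255-59007504, minus strand): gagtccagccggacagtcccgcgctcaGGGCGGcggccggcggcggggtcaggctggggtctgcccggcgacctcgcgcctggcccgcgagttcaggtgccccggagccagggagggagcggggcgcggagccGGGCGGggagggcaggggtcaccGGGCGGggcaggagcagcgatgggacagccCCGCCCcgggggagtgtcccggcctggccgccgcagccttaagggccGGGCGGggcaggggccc
CTSH (chr15:78945047-78945296, minus strand): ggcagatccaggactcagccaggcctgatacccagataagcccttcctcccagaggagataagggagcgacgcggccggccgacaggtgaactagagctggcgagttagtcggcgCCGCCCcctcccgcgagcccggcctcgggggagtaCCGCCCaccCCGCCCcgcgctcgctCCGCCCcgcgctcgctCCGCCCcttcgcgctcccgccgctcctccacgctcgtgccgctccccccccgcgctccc
CTSC (chr11:88337737-88337986, minus strand): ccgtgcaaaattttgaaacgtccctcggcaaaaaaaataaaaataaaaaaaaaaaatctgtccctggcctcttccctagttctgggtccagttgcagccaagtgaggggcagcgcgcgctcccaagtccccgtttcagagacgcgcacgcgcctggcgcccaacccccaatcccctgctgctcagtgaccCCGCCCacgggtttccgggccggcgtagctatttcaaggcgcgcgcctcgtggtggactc

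RefSeq promoters were matched for 7 of the 10 members (CTSA, CTSC, CTSD, CTSH, CTSL, CTSV and CTSZ). All 7 held a GC box, the binding motif of SP1-type factors, which was found in 42.6% of the 35116 promoters of this length. CTSZ, CTSH and CTSD had 5 each, and in CTSD 2 of them shared 1 base. The share of G and C was 81.2% in CTSZ, 79.2% in CTSD, 74.4% in CTSH, 74% in CTSV, 69.2% in CTSL, 65.6% in CTSA and 58.4% in CTSC, beside a median of 58% and an upper quartile of 68% over all promoters. The GC box is made of G and C alone. The background promoters were not matched to the members in that share or in kind of gene, so no trait of the family is read from the GC box. The E-box CACGTG, the core of the sites that TFEB-type factors bind in lysosomal genes and the same letters on both strands, was found in CTSA (2 matches) and CTSD (1 match) and in 6.34% of all promoters. Neither CTTTGAT, the core motif of TCF/LEF factors, nor TATAAA was found on either strand in any of the 7, and their shares of all promoters were 2.26% and 10.7%. No match of one motif overlapped a match of another.

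CTSZ encodes cathepsin Z, also called cathepsin X, a carboxypeptidase whose propeptide can bind integrins. Its probe set 210042_s_at had intensities of 660.4 and 688 in the parental arrays and of 28.8 and 33.1 in those of 320IWR. Both 320IWR arrays thus lay far below both parental arrays, while the arrays of each line were close to each other. The mean intensities were 674 ± 19.8 (SD, n = 2) and 31.0 ± 3.06 (SD, n = 2), a log2 difference of -4.45 (standard error 0.13), or 21.8-fold. The second CTSZ probe set, 212562_s_at, did not follow. Its intensities were 100.1 and 84.4 in the parental arrays and 93.5 and 76.4 in those of 320IWR, so that the lines overlapped, with a log2 difference of -0.12 (standard error 0.17). The log2 differences of these probe sets were 4.33 apart. Which CTSZ transcripts each probe set detects is not given in the sources used here, and no level of the gene as a whole can be read from either alone. In RNA of whole cultures, fewer cells that express a gene and less of its RNA in each cell cannot be told apart. How far 28.8 lies above background is unknown, so the size of the fold is uncertain, and adding 32 to all intensities before log2 brought the log2 difference to -3.49.

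CTSH encodes cathepsin H, an aminopeptidase, and has 1 probe set. Its intensities were 491 and 483 in the parental arrays and 172 and 179 in those of 320IWR. The lines were again clearly apart and the arrays of each line nearly equal, with a log2 difference of -1.47 (standard error 0.12), or 2.78-fold. These 2 probe sets, of CTSZ and CTSH, were the ones of the 20 that met the call rule used across the array, a Benjamini-Hochberg adjusted p under 0.05 in limma with at least a 2-fold difference. Over all 54613 probe sets, 0.258% were called lower in 320IWR cells and 0.112% higher, and no cathepsin probe set was called higher. Since the family was picked with this contrast known, nothing is read from that count. Without COLO-320DM replicate 1 or replicate 2 the CTSH probe set was no longer called (log2 differences -1.46 and -1.49), and it was not called with the offset of 32 (-1.32). Without 320IWR replicate 1 or replicate 2 limma called 0 probe sets of the whole array, with an unadjusted p under 0.05 for 3756 and 3502. Leaving out an array leaves a line with 1 array, whose spread is then taken to be that of the other line, so that a lost call does not show a smaller difference.

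**Figure D1:**
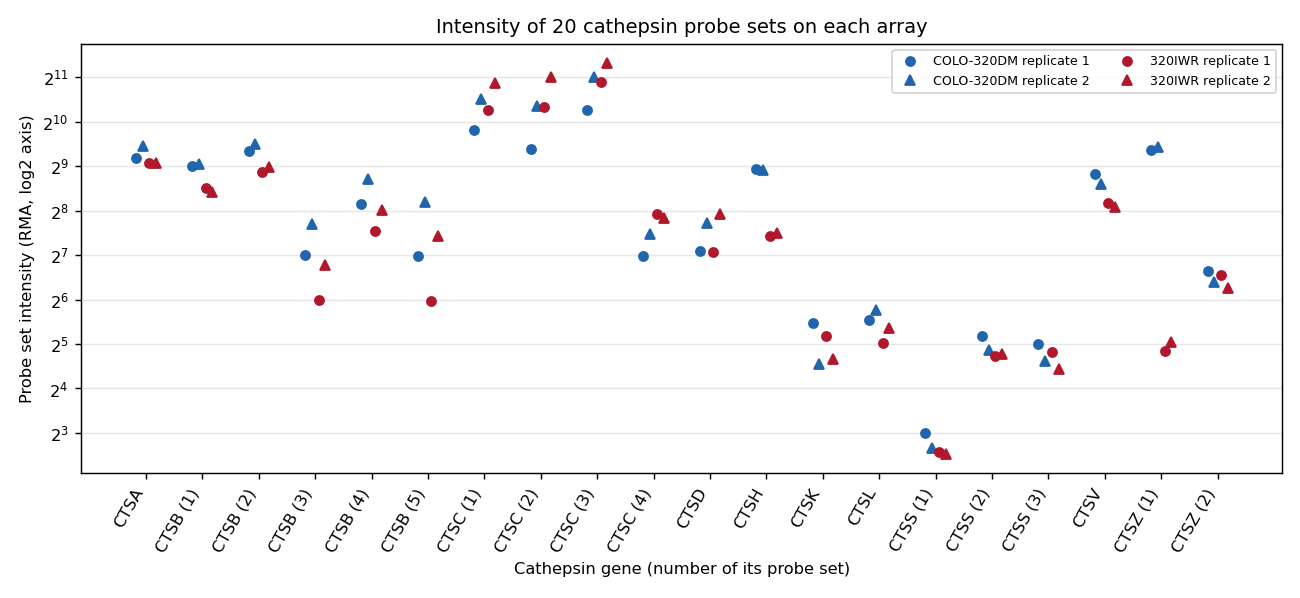
Normalized intensity of the 20 cathepsin probe sets on each of the 4 arrays, on a log2 axis, with COLO-320DM in blue, 320IWR in red, replicate 1 as circles and replicate 2 as triangles. Probe sets of a gene are numbered in the order of their identifiers, and the gap between the lines is widest for CTSZ (1), from 660.4 and 688 to 28.8 and 33.1.

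CTSB encodes cathepsin B, an endopeptidase that also removes dipeptides from the C-terminus, and is read by 5 probe sets. All 5 had a negative log2 difference. In 200838_at the intensities were 513 and 530.1 in the parental arrays and 367 and 341 in those of 320IWR, and in 200839_s_at they were 651 and 725 against 467 and 505. In both probe sets the lines did not overlap, and their log2 differences were -0.56 and -0.50 (standard errors 0.12 and 0.13). The other 3 varied more between the arrays of a line. In 213274_s_at the intensities were 127 and 207 in the parental line and 63.1 and 109.8 in 320IWR cells, in 213275_x_at 284 and 422 against 188 and 259, and in 227961_at 125 and 295 against 63.0 and 172. Only 227961_at overlapped between the lines, and the log2 differences were -0.96, -0.65 and -0.89 with standard errors of 0.36, 0.26 and 0.63.

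CTSV, a close relative of CTSL known mainly from thymus, testis and cornea, was also lower without overlap. Its probe set had intensities of 451 and 390.1 in the parental arrays and 287 and 269 in those of 320IWR, a log2 difference of -0.60 (standard error 0.14). CTSL itself, a broadly expressed endopeptidase, was dim in both lines. Its intensities were 46.7 and 54.6 in the parental line and 32.7 and 40.9 in 320IWR cells, which did not overlap (log2 difference -0.47, standard error 0.17). CTSA protects β-galactosidase and neuraminidase in the lysosome. Its intensities were 586 and 697 in COLO-320DM cells and 540.4 and 538 in 320IWR cells, so that the lines were apart by less than the spread between the parental arrays (log2 difference -0.24, standard error 0.14).

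CTSC was the member that pointed the other way. It encodes dipeptidyl peptidase I, which activates the granule serine proteases of leukocytes, and is read by 4 probe sets, all with a positive log2 difference. In 225647_s_at the intensities were 1229 and 2046 in the parental arrays and 1899 and 2538 in those of 320IWR. In 201487_at they were 895 and 1456 against 1219.7 and 1868, and in 225646_at 666 and 1314 against 1283 and 2057. In these 3 probe sets the lower array of 320IWR lay below the higher array of the parental line, so the lines overlapped, with log2 differences of 0.47, 0.40 and 0.80 (standard errors 0.30, 0.32 and 0.40). In 231234_at the intensities were 126 and 177 against 241 and 227, which did not overlap (log2 difference 0.65, standard error 0.20). The 4 probe sets of CTSC thus had the same sign, and 1 of them separated the lines.

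For the remaining members the lines lay close together or overlapped. CTSD, the aspartic protease, had intensities of 137 and 211 in COLO-320DM cells and 134 and 243 in 320IWR cells, a log2 difference of 0.08 (standard error 0.36). CTSK, the collagenase of osteoclasts, was dim with 44.6 and 23.6 against 36.3 and 25.4 (log2 difference -0.10, standard error 0.36). The arrays of a line differed more than the lines in both genes. CTSS, which trims the invariant chain of MHC class II in antigen-presenting cells, was dim in all 3 of its probe sets. In 202902_s_at its intensities were 36.3 and 29.1 against 26.5 and 27.2, and in 202901_x_at 8.0 and 6.3 against 5.9 and 5.8. Both were lower without overlap, with log2 differences of -0.27, while 232617_at had 32.2 and 24.6 against 28.4 and 21.6 and overlapped (-0.18).

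Over the family, 11 of the 20 probe sets had both 320IWR arrays below both COLO-320DM arrays, 1 had them above and 8 overlapped. Over all probe sets of the array the shares were 16.1% below and 19.5% above. The 11 belong to 7 genes (CTSA, CTSB, CTSH, CTSL, CTSS, CTSV and CTSZ), and 4 of them are probe sets of CTSB, which read the same gene and are not independent. The median log2 difference was -0.27 over the 20 probe sets and 0.01 over all, and 2 of the 20 reached a 2-fold difference. Since the members were picked with the contrast known, these values describe the family and test nothing.

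**Figure D2:**
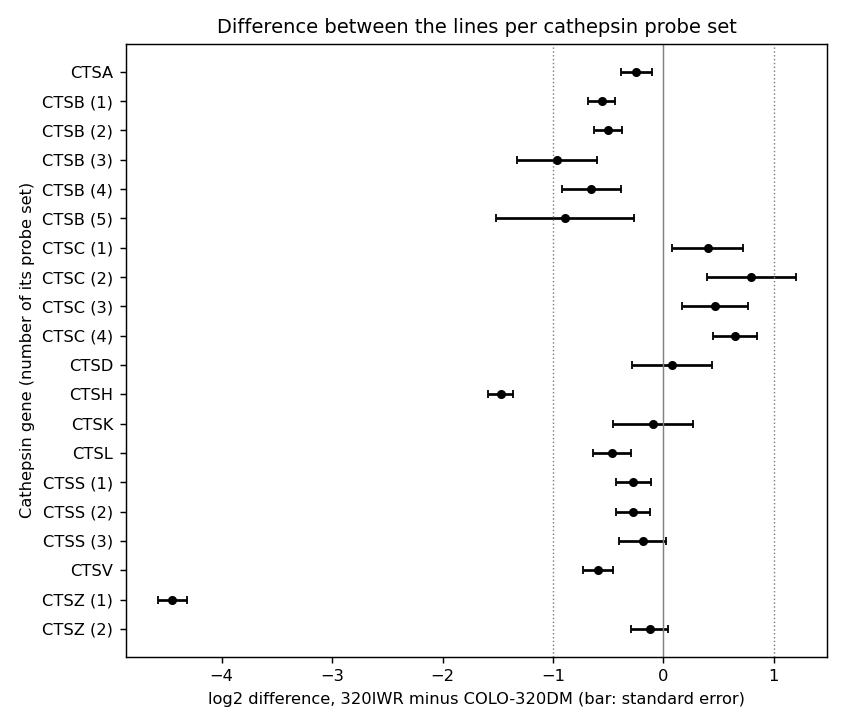
Log2 difference of each cathepsin probe set, 320IWR minus COLO-320DM, with its standard error from limma, and dotted lines at a 2-fold difference in either direction. CTSZ (1) at -4.45 and CTSH at -1.47 lie beyond the 2-fold line, the 5 CTSB probe sets lie between -0.50 and -0.96, and the 4 CTSC probe sets lie between 0.40 and 0.80.

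The arrays of one line also differed from each other in some members, a comparison that the choice of the family did not use. In 10 of the 20 probe sets replicate 2 was above replicate 1 in both lines, and in 5 it was below in both lines. Over all probe sets these shares were 34.5% and 35.5%. Most of the 10 are probe sets of CTSB and CTSC, and probe sets that read the same gene are not independent. CTSB 227961_at was higher in replicate 2 by 1.23 on the log2 scale in COLO-320DM cells and by 1.45 in 320IWR cells. CTSC 201487_at was higher there by 0.70 and 0.62, and CTSD by 0.63 and 0.86, whereas CTSK was lower by 0.92 and 0.52. In contrast, the replicate differences of CTSH were -0.02 and 0.06 and those of CTSZ 210042_s_at were 0.06 and 0.20. These are the called probe sets, and a call is easier where the arrays of a line lie close. Their closeness is thus no separate finding. In 6 probe sets (CTSB 227961_at, CTSC 201487_at, CTSD, CTSK, CTSS 232617_at and CTSZ 212562_s_at) the replicate difference was larger than the line difference in both lines. The same held for 46.0% of all probe sets. This count also rests on the line difference, a contrast that was known when the members were picked. The labels do not say what the replicates share.

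**Figure D3:**
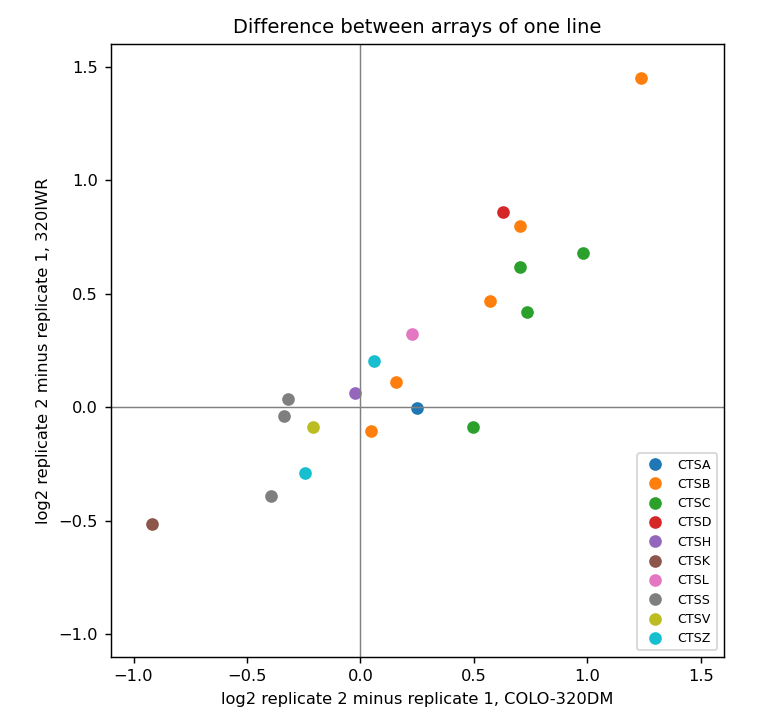
Log2 value of replicate 2 minus replicate 1 in COLO-320DM (horizontal) against the same difference in 320IWR (vertical), 1 point per cathepsin probe set, coloured by gene. CTSH lies near the origin at -0.02 and 0.06, whereas CTSB 227961_at lies at 1.23 and 1.45 and CTSK at -0.92 and -0.52.

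The genes whose pattern over the 4 arrays was nearest to that of CTSZ 210042_s_at were PTPN20, TCEA3, GPX3, ENPP2 and CXCL11. The measure was the root mean square distance of log2 values centred on the mean of each probe set, with 1 probe set per gene, and it was 0.17, 0.19, 0.20, 0.22 and 0.23. Their log2 differences ranged from -4.24 for the chemokine gene CXCL11 to -4.63 for the transcription elongation factor gene TCEA3. With 4 arrays of 2 lines, this likeness is mainly one of the size of the difference.

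The 10 measured genes on either side of CTSZ on chromosome 20 were all within 0.5 of 0 on the log2 scale. Many of them, TUBB1 and GNAS-AS1 included, were dim in both lines, so that their differences are uncertain. NELFCD, the adjacent measured gene on one side, encodes a subunit of the negative elongation factor and had mean intensities of 1840.0 and 1820.2 in COLO-320DM and 320IWR cells, a log2 difference of -0.01. TUBB1, a platelet tubulin gene on the other side, was dim at 17.4 and 19.6 (log2 difference 0.17). GNAS, which encodes a stimulatory G protein subunit, and ATP5F1E, a subunit of mitochondrial ATP synthase, were bright and had log2 differences of -0.02 and 0.04. Of the 20 neighbours limma called 0, beside 0.399% of all 19775 genes called lower and 0.192% called higher by their brightest probe sets. One, the antisense gene GNAS-AS1, had an unadjusted p under 0.05 (log2 difference 0.45, adjusted p = 0.418 in limma), and such a p was found for 12.3% of all genes. The median log2 difference of the neighbours was 0.05. The largest negative one was that of the syntaxin gene STX16, at -0.49 (adjusted p = 0.645 in limma).

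**Figure D4:**
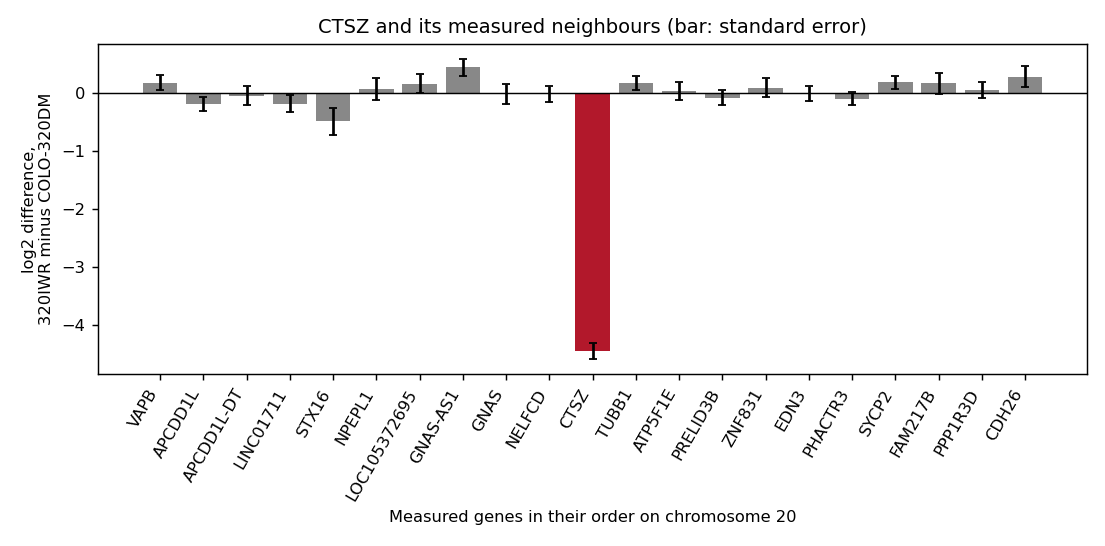
Log2 difference, 320IWR minus COLO-320DM, of CTSZ by its brighter probe set (red) and of the 10 measured genes on either side of it in the gene order of GRCh38.p14 (grey), each by its brightest probe set, with the standard error. CTSZ stands at -4.45, and its 20 neighbours, many of them dim in both lines, lie between -0.49 and 0.45.

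Genes that work with the cathepsins were followed in 10 lists of 164 measured genes, none of them members, each gene by its brightest probe set. None passed limma's test with the fold limit (0 of 164 in either direction), beside the 0.399% of all genes called lower and 0.192% called higher. The unadjusted p was under 0.05 for 24, or 14.6%, near the 12.3% of all genes. Their median log2 difference was -0.01, beside 0.02 over all genes. The number of arrays limits the precision, so a p that misses the threshold does not show that a gene was the same in both lines.

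The other 5 measured cathepsins had log2 differences between -0.24 and 0.22. CTSE, CTSO and CTSW, 3 of the 5, were dim in both lines, so their differences are uncertain. CTSF, a cysteine cathepsin, had intensities of 352 and 282 in COLO-320DM cells and of 277 and 258 in 320IWR cells (log2 difference -0.24, adjusted p = 0.798 in limma). CTSW, a cathepsin of cytotoxic lymphocytes, had 42.2 and 45.5 against 50.4 and 52.0 (log2 difference 0.22, adjusted p = 0.703 in limma). CTSE, CTSG and CTSO had log2 differences of 0.00, -0.08 and -0.02. Among 10 other lysosomal peptidases and related hydrolases, PLBD1, a phospholipase B-like protein, had 15.6 and 15.5 against 32.7 and 41.1 (log2 difference 1.24, adjusted p = 0.0845 in limma). Its arrays were apart between the lines, but it did not pass the test, and it was dim in both lines. With the probe sets of each gene averaged before the fit, PLBD1 was called higher (adjusted p = 0.048 in limma). PLBD1 has 1 probe set, so its own values were unchanged there. What differed was the set of values fitted and adjusted together, so this call is no further evidence for PLBD1.

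The inhibitors of cathepsins gave no call. Of 17 cystatins and serpins, 15 were dim in both lines, and the log2 differences of the 17 ranged from -0.27, for the epidermal cystatin gene CSTA (adjusted p = 0.754 in limma), to 0.16. CST3, which encodes the secreted cystatin C, had intensities of 979 and 1463 in COLO-320DM cells and 823 and 1323 in 320IWR cells (log2 difference -0.20, adjusted p = 0.975 in limma), and CSTB, which encodes the cytosolic cystatin B, had a log2 difference of -0.11 (adjusted p = 0.961 in limma). In CST3 the spread between the arrays of a line exceeded the difference of the lines.

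Among the proteins that make up and acidify the lysosome, the smallest p was that of ATP6AP2, an accessory subunit of the vacuolar ATPase and the prorenin receptor. Its intensities were 2775 and 2639 in the parental arrays and 1291 and 1211 in those of 320IWR, a log2 difference of -1.11 (standard error 0.12, adjusted p = 0.0638 in limma). A second bright probe set of the gene had -1.16 (adjusted p = 0.102 in limma) and a dim one -0.13. The lines were clearly apart in both bright probe sets, yet neither passed the test. With the replicate number as a block, the brightest one was called lower (adjusted p = 0.0382 in limma). ATP6V0D2, a vacuolar ATPase subunit of osteoclasts and kidney, had 86.6 and 311 in COLO-320DM cells and 61.7 and 102 in 320IWR cells in its brightest probe set, which overlapped (log2 difference -1.05, adjusted p = 0.769 in limma), and -0.80 and -1.43 in its other probe sets. The 23 vacuolar ATPase genes had a median log2 difference of 0.06, with 12 above 0 and 11 below. LAMP2, a main glycoprotein of the lysosomal membrane, had 1876 and 1752 against 1178 and 1016 (log2 difference -0.73, adjusted p = 0.176 in limma), and all 4 of its probe sets were negative, from -0.32 to -0.73. LAMP1 had a log2 difference of -0.12 (adjusted p = 0.977 in limma). MCOLN1, a calcium channel of the lysosome, was on the other side at 0.63 (adjusted p = 0.198 in limma), and the 22 membrane proteins had a median of 0.03.

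Of the 26 lysosomal glycosidases, lipases, sulfatases and their cofactors, 18 were lower and 8 higher in 320IWR cells without passing the test, with a median log2 difference of -0.23. HEXA, the α subunit of β-hexosaminidase, had 735 and 794 against 394 and 499 (log2 difference -0.79, adjusted p = 0.203 in limma), while its 3 dimmer probe sets lay between -0.10 and -0.07. GALNS, a sulfatase of keratan sulfate, had 248 and 281 against 400.2 and 415 (log2 difference 0.63, adjusted p = 0.203 in limma). NEU1, the neuraminidase that CTSA protects, had 358 and 307 against 288 and 251. The lines did not overlap in NEU1, but its log2 difference of -0.30 did not pass the test (adjusted p = 0.66 in limma).

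Receptors that carry the proenzymes and the factors that control lysosomal genes gave no call. IGF2R, the cation-independent mannose 6-phosphate receptor, had a log2 difference of -0.46 (adjusted p = 0.465 in limma) and M6PR, the cation-dependent one, -0.03, in a list of 23 sorting genes with a median of -0.03. SUMF1, which activates sulfatases, had -0.51 (adjusted p = 0.44 in limma). TFEB, a transcription factor of lysosomal genes, had intensities of 118 and 113 in COLO-320DM cells and 88.0 and 75.3 in 320IWR cells in its brightest probe set (log2 difference -0.50, adjusted p = 0.325 in limma), and -0.10 in the other. LAMTOR3 is part of the Ragulator complex that tethers mTORC1 to the lysosome. Its log2 difference was -0.72 in its brightest probe set (adjusted p = 0.447 in limma) and -0.80 in the other (adjusted p = 0.167 in limma). The 18 genes of this last list had a median of -0.09.

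**Figure D5:**
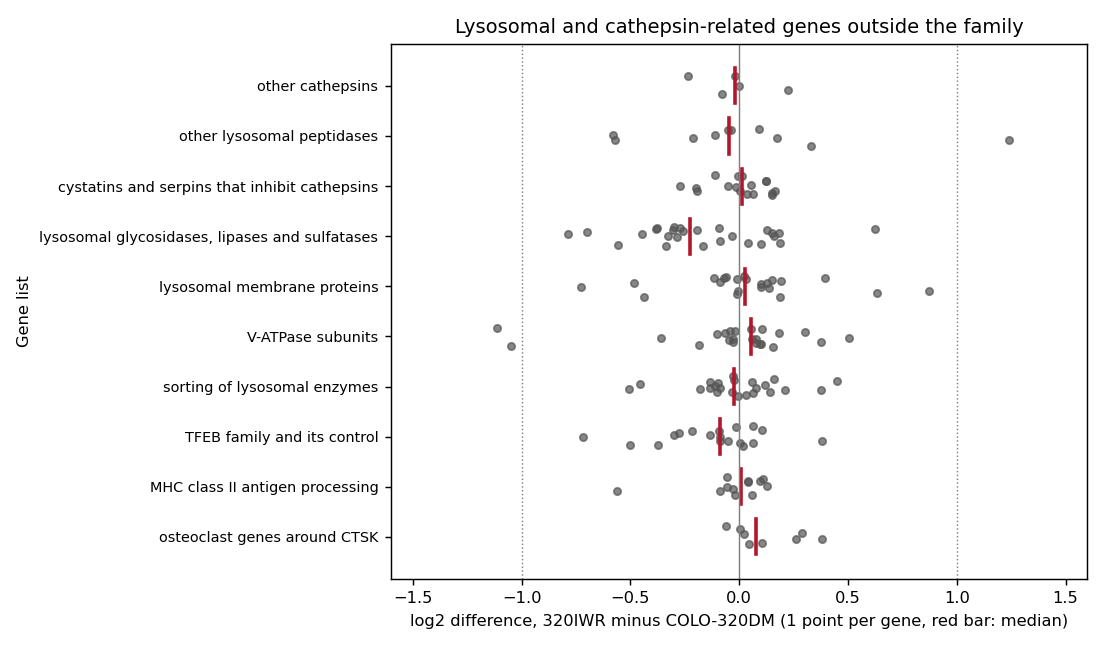
Log2 difference, 320IWR minus COLO-320DM, of each measured gene of 10 lists related to cathepsins and the lysosome, 1 point per gene by its brightest probe set, with the list median as a red bar and dotted lines at a 2-fold difference. The medians lie between -0.23 and 0.08. No gene of these lists passed the test in the fit shown, which took all probe sets singly and had no replicate block.

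Cathepsins S, W, G and C are also known from leukocytes and cathepsin K from osteoclasts, so markers of other cells were read beside them. None of 14 leukocyte, 10 fibroblast and 9 endothelial markers passed limma's test. Of these, 12 leukocyte, 6 fibroblast and 8 endothelial markers were dim in both lines, where a difference could be missed. The summed intensity of the leukocyte markers was 522 to 566 on the COLO-320DM arrays and 560 to 641 on the 320IWR arrays, and that of the endothelial markers 286 to 299 and 276 to 311. PTPRC was the brightest leukocyte marker, with 179 and 135 in COLO-320DM cells and 218 and 172 in 320IWR cells. The lines overlapped in PTPRC (log2 difference 0.32, adjusted p = 0.794 in limma). The fibroblast sum was 778 and 1678 in COLO-320DM cells and 754 and 1646 in 320IWR cells, and COL3A1, a fibrillar collagen gene, made most of the gap between the replicates (292 and 1193, 278 and 1187). The gap runs between the arrays of a line, like that of CTSB 227961_at and CTSD, and its part in those values was not tested. The genes of MHC class II antigen processing, to which CTSS belongs, had a median log2 difference of 0.01, with 0 of 12 called. Among the 12, 9 were dim in both lines. The smallest p was that of HLA-DMA, a peptide-loading chaperone that was also dim (-0.56, adjusted p = 0.462 in limma). The osteoclast genes around CTSK had a median of 0.08, with 0 of 8 called and 6 of 8 dim in both lines. The smallest p by the brightest probe sets was that of the receptor gene OSCAR, also dim (0.26, adjusted p = 0.645 in limma). A dimmer probe set of TNFRSF11A, the receptor for the osteoclast factor RANKL, had mean intensities of 5.6 and 10.6 (log2 difference 0.92, adjusted p = 0.0915 in limma), and its brightest probe set 13.8 and 18.2 (0.38, adjusted p = 0.707 in limma). Of 10 epithelial markers, KRT8 and KRT18, keratins of simple epithelia, fell (log2 differences -2.26 and -1.67, adjusted p = 0.0155 and 0.0322 in limma), and KRT20, an intestinal keratin, rose (1.78, adjusted p = 0.0412 in limma). Without any one of the 4 arrays none of the 3 was called (adjusted p from 0.0656 to 0.296 in limma), while the log2 differences were -2.37 to -2.15 for KRT8, -1.78 to -1.55 for KRT18 and 1.62 to 1.94 for KRT20. Mean intensities in COLO-320DM and 320IWR cells were 3333 and 2756 for the colon factor CDX2, 1226 and 385 for KRT18 and 539.9 and 113 for KRT8, whereas the epithelial markers EPCAM (29.3 and 15.8), CDH1 (17.2 and 18.5) and KRT19 (11.3 and 11.7) were dim in both lines. The ratio of 3′ to 5′ control probe sets, a sign of RNA integrity, was 0.97 to 1.01 for GAPDH and at most 1.09 for ACTB.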

How the data were processed

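Gene expression was measured on 4 GeneChip U133 Plus 2.0 arrays, 2 for COLO-320DM and 2 for 320IWR, grouped by their labels. Per the labels, the deposited intensities were made by the authors with RMA, without a version, and their methods name GeneSpring GX. They lie on a linear scale, are not centred per probe set, and carry no detection calls, so their distance above background is unknown and dim values give uncertain folds. The array medians were 41.1 to 41.9.

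Log2 values (floor 1) of 54613 probe sets, after 62 controls were left out, were fitted with limma 3.58.1 in R 4.3.3 (lmFit and eBayes, cell line as the only term, constant prior, no filter). A call required at least 2-fold and an adjusted p (Benjamini-Hochberg, over all probe sets) under 0.05. Symbols came from the supplied annotation, whose gene identifiers match the GRCh38.p14 table with 0 updates. In lists, each gene counts once, by its brightest probe set. For members, dim means a mean log2 value under 6 in both lines. In lists, it means that the log2 of the mean intensity was under 6 in both lines.

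The members, the lists and the naming rule were chosen with earlier results of these data known. Named are all members, up to 4 called genes per list or else the gene with the smallest p, the next neighbours of CTSZ and called ones, the 5 genes nearest to it in pattern, and fixed partners. HEXA, MCOLN1, ATP6V0D2, TNFRSF11A, LAMTOR3, STX16, GNAS, GNAS-AS1, ATP5F1E, PTPRC, COL3A1, CDX2, EPCAM, CDH1, KRT19, CTSE, CTSF, CTSG and CTSO lie outside this rule and were chosen after their values were seen. Listed genes without a probe set of 1 symbol, GLB1 among them, were not analysed here. The fit was also run on simulated arrays with independent noise. The likeness of same-numbered arrays was not simulated, so this run does not show how that likeness affects the calls. Alternatives were a block for the replicate number, leaving out each array, cyclic loess, equal medians, a filter on dim probe sets, a trended robust prior, an offset of 32, ratios of arithmetic means, other call rules and other choices of probe set.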

Additional observations from a re-analysis of the deposited data

How the results depend on the processing

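Of the 20 cathepsin probe sets, 2 were called lower and 0 higher. The count lower was 1 at an adjusted p under 0.01 and 1 with an offset of 32, both times CTSZ. It was 0 once the _x_at and _s_at probe sets were left out, which removes both called probe sets, and 0 to 1 when an array was left out. The log2 difference of CTSZ 210042_s_at moved from -4.45 to -3.49 with the offset and stayed between -4.35 and -4.55 when an array was left out. With the replicate number as a block (replicate block), 2 cathepsin probe sets were called lower, as in the fit without it, and 1 gene of the 164 listed fell, ATP6AP2 (adjusted p = 0.0382 in limma). Over all probe sets the block moved the calls from 141 to 394 lower and from 61 to 182 higher. Deviations of same-numbered arrays from their line means had a Pearson's r of 0.66 across probe sets, which are not independent, but with 2 pairs and no label for what the numbers share this does not make them pairs. With the probe sets of each gene averaged, 1 listed gene rose, PLBD1 (adjusted p = 0.048 in limma). It has 1 probe set, so its log2 difference stayed at 1.24, and only the set of values fitted and adjusted together differed. The cause of the other moves was not tested. No neighbour of CTSZ was called in any of these alternatives. When an array was left out or the values were rescaled, the sign changed in CTSD, CTSK, CTSS 232617_at and CTSZ 212562_s_at, in 2 of 8 settings each.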
